A study of Mus musculus with 8 samples.

Results

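The 10 genes described here encode the classical MHC class I molecule and the machinery that fills it with peptide: the heavy chains H2-K1 and H2-D1, the light chain B2m, the peptide transporter subunits Tap1 and Tap2, tapasin (Tapbp), the inducible proteasome subunits Psmb8, Psmb9 and Psmb10, and Nlrc5, the transactivator of class I genes. They were taken by gene name from the deposited tables, and all 10 were found among the 26939 genes that the joined tables hold. All 10 passed the filter on low counts in every comparison, with between 1677 and 88344 counts per gene and library.

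The tables hold bulk RNA-seq of tumor-associated macrophages (TAMs), sorted on day 21 from orthotopic EO771 breast tumors of female mice aged 8 to 14 weeks by a gate for viable CD45+ cells with CD11b and F4/80 and without Gr-1. C57BL/6J wild-type (WT) mice were compared with Unc93b1 3d/3d mice, whose mutant UNC93B1, a chaperone that carries nucleic acid sensing Toll-like receptors to endosomes, leaves TLR3, TLR7 and TLR9 without function. Of the 8 libraries, 4 came from mice given 100 µg of αMARCO (the rat IgG1 clone ED31 against the scavenger receptor MARCO) on days 3, 6, 9 and 12. The 4 groups, WT control, 3d/3d control, WT αMARCO and 3d/3d αMARCO, have 2 libraries each. The sample labels call the controls untreated and name their libraries PBS, whereas the treatment protocol names an isotype antibody, so what the controls received is not settled. The study's legend gives each control sample as a pool of 3 mice, and whether the αMARCO samples were pools is not given in the sources used here. One 3d/3d control sample carries the genotype 3d/4d in 1 label field and 3d/3d in its title. The mutation is in all cells of the animal, so TAMs of 3d/3d mice developed in hosts whose other cells carried it too.

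MHC class I molecules display peptides from proteins made or taken up by the cell to CD8+ T cells. Proteasomes cut the proteins, TAP carries the peptides into the endoplasmic reticulum, and tapasin holds the empty heavy chain and B2m at the transporter until a peptide binds. In cross-presentation a phagocyte loads class I with peptides of proteins it has engulfed, a function to which UNC93B1 has been linked. Interferon-γ is the classical inducer of the pathway, and it replaces the constitutive catalytic subunits Psmb5, Psmb6 and Psmb7 with Psmb8, Psmb9 and Psmb10.

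In coordinates of the GRCm38 build, 7 of the 10 genes lie on chromosome 17. Tapbp is at chr17:33915899-33929288 and H2-K1 at chr17:33996017-34000333, followed by a run of antigen processing genes: Psmb9 at chr17:34181988-34187764, Tap1 at chr17:34187553-34197225, Psmb8 at chr17:34197721-34201454 and Tap2 at chr17:34203527-34216321. H2-D1 is at chr17:35262730-35267499. Outside this chromosome, B2m is at chr2:122147686-122153083, Nlrc5 at chr8:94434356-94527272 and Psmb10 at chr8:105935735-105938444. The spans of Psmb9 and Tap1, which are transcribed in opposite directions, share 212 bases, and whether the counting used strand is not given in the sources used here, so reads from these bases cannot be told apart. H2-K1 and H2-D1 are close in sequence to each other and to other class I heavy chains. How the counting treated reads that match several of them is not given in the sources used here, so their levels are uncertain to that extent.

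The SXY module of class I promoters, through which NLRC5 acts, carries an X2 element and a Y element at a fixed distance. Of the 10 genes, 8 have a promoter in the RefSeq table for GRCm38.p6, which gives 250 bases before and 50 after each start. The letters TGACG, as found in X2 elements, followed after 20 bases by ATTGG, the reverse complement of the CCAAT box of Y elements, stood in the promoters of H2-K1, H2-D1 and B2m. The 3 windows are shown because the genes that hold the spaced pair are those of the class I molecule itself, with the letters searched in capitals. They come from chr17:34000359-34000388 on the minus strand, chr17:35262993-35263022 on the plus strand and chr2:122147609-122147638 on the plus strand, each read 5′ to 3′. The H2-D1 window begins 101 bases before the RefSeq start but lies inside the gene span given above, which starts further upstream.
H2-K1: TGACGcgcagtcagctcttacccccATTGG
H2-D1: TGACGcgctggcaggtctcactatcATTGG
B2m: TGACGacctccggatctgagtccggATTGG
The letters in capitals are the same in all 3 because the search fixed them. At the 20 positions between them, H2-K1 and H2-D1 are identical at 13, while B2m is identical to H2-K1 at 3 and to H2-D1 at 2. On either strand, this pair at this distance stood in 0.0944% of all 32851 promoters. TGACG alone stood in 20.8% of promoters and in those of 5 of the genes (H2-K1, H2-D1, B2m, Tap1 and Psmb9), and CCAAT alone in 37.4% and in those of 6 (the same genes and Tapbp). The κB-like letters GGGNNTTCC stood in H2-K1 and H2-D1 and in 5.82% of promoters, the interferon-response letters GAAANNGAA in B2m and in 8.56%, and the STAT-type letters TTCNNNGAA in Psmb8 and in 8.30%. These matches describe the letters in a window and do not show binding.

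One library has to be named before the levels are read. Replicate 2 of 3d/3d αMARCO differed from its partner by a chi-square of 102 per degree of freedom over genes, against 7.5 to 12 in the other 3 pairs of replicates. In it, genes with models of at most 1793 bases had a median deviation of 0.538 (log2) from their mean over the 8 libraries, and genes with models of at least 9060 bases had one of -0.399. A milder difference of the same kind ran through the other libraries, with short genes at 0.209 and 0.135 in WT control, -0.144 and -0.081 in 3d/3d control, -0.244 in replicate 1 of 3d/3d αMARCO, and -0.25 and -0.178 in WT αMARCO. Nlrc5 has the longest model of the 10 genes at 8493 bases, and B2m has the shortest at 860. The fold changes and ratios of the 10 genes that rest on this library are therefore given with and without it. Each comparison is followed by values of these genes after a correction for gene length in each library, which was chosen after seeing the data. Values of the other lists and the ratios are given without this correction. Library totals lay between 15182618 and 26411936 counts.

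CPM below are counts relative to library size after TMM normalisation. H2-K1, a classical heavy chain that presents peptides to CD8+ T cells, had 3906 and 4581 CPM in WT control and 3380 and 3192 in 3d/3d control. H2-K1 had 3213 and 3291 in WT and 2681 and 4195 in 3d/3d under αMARCO. H2-D1, the other classical heavy chain, had 4425 and 4855 CPM in WT control and 3593 and 3370 in 3d/3d control. H2-D1 had 3337 and 3408 in WT and 2845 and 4325 in 3d/3d under αMARCO. B2m, the light chain of class I molecules, had 3568 and 4097 CPM in WT control and 3043 and 3001 in 3d/3d control. B2m had 3020 and 3288 in WT and 2935 and 5129 in 3d/3d under αMARCO. For each of these genes both WT control libraries were above both libraries of 3d/3d control and of WT αMARCO, and the libraries of 3d/3d αMARCO lay on either side of those groups.

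Tap1, which forms the peptide transporter with Tap2, had 530 and 544 CPM in WT control and 384 and 379 in 3d/3d control. Tap1 had 474 and 459 in WT and 361 and 439 in 3d/3d under αMARCO. Tap2 had 169 and 172 CPM in WT control and 126 and 124 in 3d/3d control. Tap2 had 154 and 146 in WT and 111 and 178 in 3d/3d under αMARCO. Tapbp had 359 and 351 CPM in WT control and 313 and 309 in 3d/3d control. Tapbp had 298 and 307 in WT and 271 and 406 in 3d/3d under αMARCO. The transporter subunits in WT αMARCO lay between the 2 control groups, whereas Tapbp in WT αMARCO lay below both.

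Psmb8, the inducible subunit that takes the place of Psmb5, had 282 and 294 CPM in WT control and 177 and 182 in 3d/3d control. Psmb8 had 198 and 193 in WT and 163 and 313 in 3d/3d under αMARCO. Psmb9, which takes the place of Psmb6, had 221 and 236 CPM in WT control and 149 and 145 in 3d/3d control. Psmb9 had 174 and 158 in WT and 133 and 246 in 3d/3d under αMARCO. Psmb10, which takes the place of Psmb7, had 182 and 185 CPM in WT control and 105 and 118 in 3d/3d control. Psmb10 had 129 in both libraries of WT and 105 and 258 in 3d/3d under αMARCO. All 3 inducible subunits were highest in replicate 2 of 3d/3d αMARCO, then in WT control. Nlrc5 had 342 and 411 CPM in WT control and 404 and 382 in 3d/3d control. Nlrc5 had 502 and 433 in WT and 363 and 166 in 3d/3d under αMARCO. It was the gene of the 10 whose control groups overlapped, and the one that had its lowest level in replicate 2 of 3d/3d αMARCO.

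**Figure D1:**
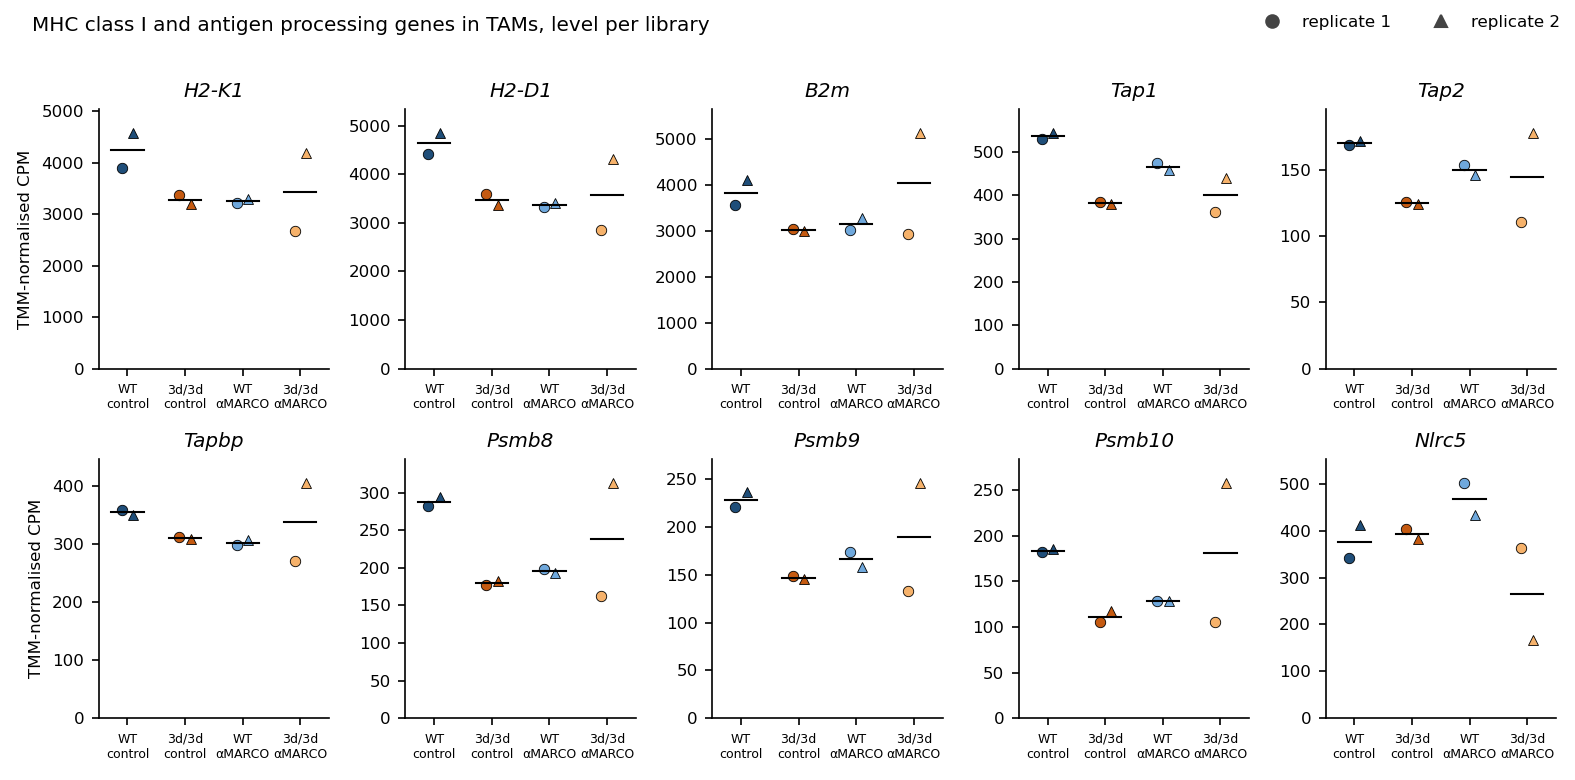
TMM-normalised CPM (linear axes from 0) of each of the 10 genes in the 8 libraries, with circles for replicate 1, triangles for replicate 2 and a line at the group mean. In 9 of the 10 genes both WT control libraries lie above both 3d/3d control libraries, and the 3d/3d αMARCO libraries are further apart than those of any other group in all 10 genes.

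Per kilobase of gene model, the order of the levels in WT control was B2m with 4457 CPM per kilobase, H2-D1 with 1799 and H2-K1 with 1627, then Tapbp with 108, Psmb10 with 107, Psmb8 with 105, Tap1 with 98.0, Psmb9 with 62.4, Tap2 with 45.1 and Nlrc5 with 44.4. The libraries of H2-D1 and H2-K1 overlapped, as did those of Tapbp and Psmb10, of Psmb10 and Psmb8, and of Tap2 and Nlrc5, so those neighbours cannot be ordered. In 3d/3d control B2m, H2-D1, H2-K1 and Tapbp kept their places, Tap1 with 69.7 CPM per kilobase stood above Psmb8 with 65.6 and Psmb10 with 65.4, and Nlrc5 with 46.3 stood above Psmb9 with 40.2 and Tap2 with 33.1. The libraries of Psmb8 and Psmb10 overlapped there.

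In control mice, the inducible proteasome subunits were the genes of the 10 that differed between the genotypes past the threshold, and they were higher in WT TAMs. Fold changes are WT over 3d/3d, with standard errors, from edgeR's quasi-likelihood test, and a gene was called when its adjusted P did not exceed 0.05 (Benjamini-Hochberg over all 15600 genes tested) and its log2 fold change reached 0.5 in size. Psmb10 was higher by 0.70 ± 0.10 (log2, SE; adjusted P = 0.00186), Psmb8 by 0.67 ± 0.09 (adjusted P = 0.00189) and Psmb9 by 0.62 ± 0.09 (adjusted P = 0.0029). These 3 of 10 genes compare with 6.58% of all genes tested called as higher in WT and 13.0% called in either direction, and none of the 10 was called as lower, against 6.40% of all genes.

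Tap1, Tap2 and H2-D1 passed on the adjusted P but lay under the fold threshold. Their log2 fold changes were 0.48 ± 0.09 for Tap1 (adjusted P = 0.00904), 0.43 ± 0.09 for Tap2 (adjusted P = 0.0114) and 0.40 ± 0.11 for H2-D1 (adjusted P = 0.0391). With them, 6 of the 10 genes passed on the adjusted P alone as higher in WT, where 10.2% of all genes did. H2-K1, B2m and Tapbp did not pass, with log2 fold changes of 0.35 ± 0.12 (adjusted P = 0.0717), 0.33 ± 0.12 (adjusted P = 0.079) and 0.18 ± 0.09 (adjusted P = 0.209). Nlrc5 did not pass either, at -0.08 ± 0.11 (adjusted P = 0.675). For 9 of the 10 genes both WT libraries were above both 3d/3d libraries, as for 33.2% of all genes tested. The median log2 fold change over the 10 genes was 0.42, and over all genes tested it was -0.0036.

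After the correction for gene length, Psmb8, Psmb9 and Psmb10 stayed called, Tap1 became called at 0.52 (adjusted P = 0.00579), and H2-D1 at 0.31 no longer passed on the adjusted P (adjusted P = 0.102). Fitting all 8 libraries in 1 model, where replicate 2 of 3d/3d αMARCO enters the shared estimate of the spread, left 0 of the 10 genes called, with fold changes of 0.68, 0.63 and 0.72 for Psmb8, Psmb9 and Psmb10 and adjusted P values of 0.27, 0.286 and 0.363 in edgeR.

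The constitutive partners of the inducible subunits were measured in the same libraries. Psmb5 had 77.4 and 79.2 CPM in WT control and 53.9 and 57.0 in 3d/3d control, a log2 fold change of 0.48 ± 0.09 (adjusted P = 0.00862). Psmb6 had 151 and 173 CPM in WT control and 142 and 156 in 3d/3d control, 0.11 ± 0.10 (adjusted P = 0.513). Psmb7 had 77.2 and 84.6 CPM in WT control and 58.4 and 69.2 in 3d/3d control, 0.32 ± 0.11 (adjusted P = 0.067). Psmb5 thus passed on the adjusted P as well, just under the fold threshold. Before any correction for gene length, the difference was therefore not limited to the inducible subunits. Genes with short models as a set were higher in WT control (0.209 and 0.135) than in 3d/3d control (-0.144 and -0.081). The part of gene length in the values of these partners was not tested.

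The ratio of an inducible subunit to its constitutive partner within a library does not depend on how libraries are scaled. It is not free of the difference between short and long genes described above, and no ratio was corrected for it. The log2 ratio of Psmb9 to Psmb6, in counts per kilobase, was -0.42 and -0.52 in WT control and -0.89 and -1.07 in 3d/3d control. That of Psmb10 to Psmb7 was 2.24 and 2.13 in WT control and 1.85 and 1.77 in 3d/3d control, and that of Psmb8 to Psmb5 was 0.26 and 0.29 against 0.11 and 0.07. All 3 ratios were higher in both WT control libraries than in both 3d/3d control libraries, by 0.51, 0.37 and 0.18 on the log2 scale. With 2 libraries against 2, a two-sided exact permutation test cannot give a P below 0.333, which it gave for each of the 3, so these ratios stand as values.

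The ratio of the summed heavy chains H2-K1 and H2-D1 to B2m differed little by genotype in control mice, with log2 values of -0.37 and -0.39 in WT and -0.40 and -0.46 in 3d/3d, a difference of 0.05 (exact permutation P = 0.333, the smallest the design allows). H2-K1, H2-D1 and B2m have models of 2608, 2579 and 860 bases, and this ratio was not corrected for gene length in any group.

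**Figure D2:**
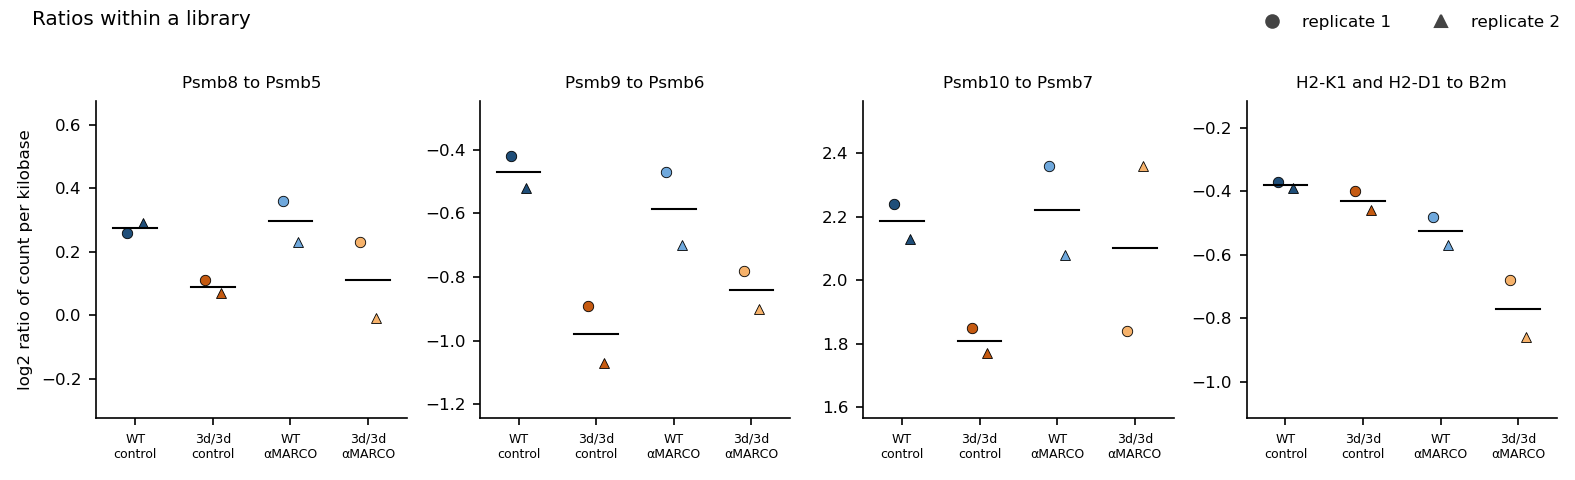
Log2 ratio of counts per kilobase within each library for the 3 pairs of inducible and constitutive proteasome subunits and for the heavy chains over B2m, with circles for replicate 1, triangles for replicate 2 and a line at the group mean; each axis spans 1 log2 unit. In control mice all 3 subunit ratios are higher in WT, by 0.18 to 0.51, and the heavy chain ratio is lowest in 3d/3d αMARCO, at -0.68 and -0.86. The ratios are not corrected for the difference between short and long genes.

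Other genes of the pathway were read from lists. Their counts called stand beside 6.58% of all genes tested called as higher in WT and 6.40% called as lower. Of the constitutive proteasome and its activators, 6 of 19 genes tested were called as higher in WT control TAMs and 0 as lower. The median log2 fold change over the 19 was 0.47. On the adjusted P alone 14 passed, all as higher in WT, where 10.2% of all genes tested passed as higher. The largest were Pomp, the chaperone of proteasome assembly, which was higher by 0.69 ± 0.10 (adjusted P = 0.00259), Psme2, a subunit of the interferon-inducible PA28 activator, by 0.69 ± 0.11 (adjusted P = 0.00313), and the core subunit Psma6 by 0.68 ± 0.10 (adjusted P = 0.00262). Psme2 had 163 and 140 CPM in WT control and 88.8 and 96.9 in 3d/3d control. Before any correction for gene length, higher levels in WT were thus found among core and activator genes of the proteasome as well as among its inducible subunits.

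Among the other class I heavy chains, 2 of 16 tested were called as higher in WT control TAMs and 0 as lower (median 0.34). They were Cd1d1, which presents lipids to NKT cells, at 1.59 ± 0.25 (adjusted P = 0.00343), and H2-T10 at 0.58 ± 0.15 (adjusted P = 0.0268). Of 11 genes of peptide loading and trimming in the endoplasmic reticulum, 1 was called as higher (median 0.30), namely Tapbpl, which encodes the tapasin-related peptide editor TAPBPR, at 0.66 ± 0.11 (adjusted P = 0.00461). Of 6 cytosolic peptidases, 0 were called as higher and 1 as lower (median 0.00), the aminopeptidase Npepps at -0.52 ± 0.15 (adjusted P = 0.0457).

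The list of cross-presentation machinery, which holds genes of uptake, phagosome handling and export of antigen, had 3 of 32 genes called as higher in WT control TAMs and 1 as lower, with a median of 0.16. Over all genes tested, 6.58% were called as higher and 6.40% as lower. Rac2, a GTPase that helps assemble the phagosomal NADPH oxidase, was higher in WT by 1.08 ± 0.12 (adjusted P = 0.000535), with 320 and 392 CPM against 160 and 173. Mrc1, the mannose receptor, was lower in WT, with a log2 fold change of -1.07 ± 0.20 (adjusted P = 0.013). Igtp, an interferon-inducible GTPase, was higher by 0.60 ± 0.11 (adjusted P = 0.00755). The genes of this list that were called moved in both directions, as did those called over all genes.

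Unc93b1 itself, which carries the 3d mutation, is in the same list. It had 848 and 965 CPM in WT control and 539 and 660 in 3d/3d control. Unc93b1 had 749 and 707 in WT and 557 and 641 in 3d/3d under αMARCO. The mutant allele still makes a transcript, so counts do not check the genotype labels. The transcript was higher in WT control TAMs by 0.58 ± 0.12 (adjusted P = 0.0125). Under αMARCO the log2 fold change was 0.29 ± 0.21 and did not pass (adjusted P = 0.71 in edgeR), or 0.39 without replicate 2 of 3d/3d αMARCO. The WT libraries were above the 3d/3d libraries in both treatments, as for 33.2% of all genes tested in control mice and 22.1% under αMARCO.

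Of 27 regulators of class I expression, 4 were called as higher and 2 as lower in WT control TAMs, with a median of 0.09. Irf1, an interferon-induced activator of class I and immunoproteasome genes, had 313 and 406 CPM in WT control and 180 and 226 in 3d/3d control, a log2 fold change of 0.81 ± 0.15 (adjusted P = 0.0113). Nfkb1, a subunit of NF-κB, was higher by 0.74 ± 0.11 (adjusted P = 0.00268). Ifng, which T and NK cells express, had 7.95 and 7.98 CPM in WT control and 0.879 and 0 in 3d/3d control. Ifng had 0.194 and 1.31 in WT and 0.0451 and 0.272 in 3d/3d under αMARCO. It was called as higher in WT control at a log2 fold change of 4.26 ± 0.92 (adjusted P = 0.0344), with a 3d/3d control library at 0 counts.

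Markers of several other cell types also differed between the genotypes in control mice. Of 16 T cell markers, 15 were called as higher in WT control TAMs and 1, Cd4, as lower, and their summed level was 179 to 204 CPM in WT control and 80.2 to 97.6 in 3d/3d control. It was 21.4 to 37.5 in the WT libraries under αMARCO and at most 23.7 in those of 3d/3d. None of the 16 was at 0 in any library. NK cell markers summed to 160 to 180 CPM in WT control and 44.4 to 70.6 in 3d/3d control, with 4 of 10 called as higher and Ncr1 at 0 in at least 1 library. Mature dendritic cell markers summed to 878 to 1461 CPM in WT control and 370 to 385 in 3d/3d control, with 4 of 9 called as higher. Markers of the cross-presenting dendritic cells called cDC1 summed to 902 to 937 CPM and 559 to 671, with 3 of 9 called as higher, and B cell markers to 111 to 157 and 26.5 to 27.7, with 3 of 5 called as higher. Of the neutrophil markers 0 of 7 were called (316 to 339 CPM in WT control and 232 to 268 in 3d/3d control), and of the tumor and stromal markers 1 of 10 was called as higher and 2 as lower (328 to 402 and 201 to 244 CPM). Of the 11 TAM markers, 2 (Ptprc and Itgam) were called as higher and 2 (Apoe and Lyz2) as lower. The 11 TAM markers, none at 0 in any library, summed to 16709 to 17687 CPM in WT control and 17545 to 21342 in 3d/3d control. The part of other cells in the class I differences was not tested, and in bulk samples fewer cells of a type and less RNA per cell cannot be told apart.

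For comparison, the 10 genes of the MHC class II list, which serve presentation to CD4+ T cells, had 2 called as higher in WT control TAMs, H2-Ob at 1.64 ± 0.21 (adjusted P = 0.00166) and H2-Oa at 1.49 ± 0.42 (adjusted P = 0.0395), and 0 as lower, with a median of 0.37. Both encode subunits of DO, an inhibitor of class II peptide loading. A difference between the class I and class II genes was not tested.

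Between αMARCO and control in WT TAMs, 1 of the 10 genes was called, the inducible proteasome subunit Psmb8, which was lower under αMARCO. This comparison shares the WT control libraries with the one above, so its direction is not independent of it, and only the αMARCO libraries are new. Psmb8 had a log2 fold change of -0.55 ± 0.08 (αMARCO over control, adjusted P = 0.000839). That is 1 of 10 genes, against 11.8% of 15630 genes tested called as lower and 20.7% called in either direction, so the share of the class I genes called lies near or below the background. None of the 10 was called as higher, against 8.91% of all genes. Psmb10, with a log2 fold change of -0.50 ± 0.07 (adjusted P = 0.00105), lay just short of the fold threshold.

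On the adjusted P alone, 6 of the 10 genes passed as lower under αMARCO, where 19.0% of all genes did. Beside Psmb8 and Psmb10 these were Psmb9 with -0.46 ± 0.08 (adjusted P = 0.00301), H2-D1 with -0.45 ± 0.11 (adjusted P = 0.0103), H2-K1 with -0.38 ± 0.12 (adjusted P = 0.0305) and Tapbp with -0.22 ± 0.08 (adjusted P = 0.0497). B2m, Tap1 and Tap2 had log2 fold changes of -0.27, -0.19 and -0.18 and did not pass (adjusted P between 0.0895 and 0.0943). Nlrc5 was the gene with a positive value, 0.32 ± 0.11 (adjusted P = 0.0524). The groups did not overlap for 9 genes that were lower, as for 36.8% of all genes, and for Nlrc5, which was higher, as for 34.1%.

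**Figure D3:**
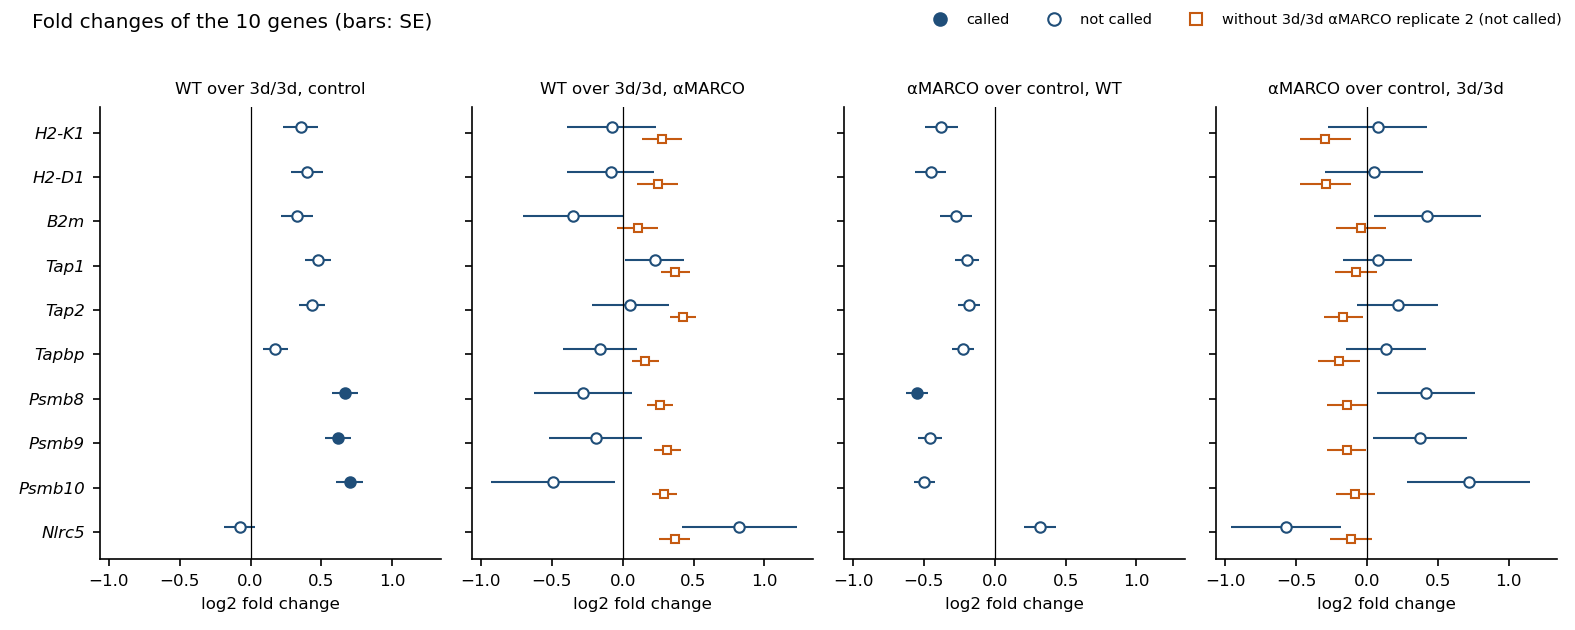
Log2 fold changes of the 10 genes in the 4 comparisons, with standard errors as bars; filled circles were called, open circles were not, and orange squares are the fits without replicate 2 of 3d/3d αMARCO, in which none was called. Psmb8, Psmb9 and Psmb10 are called in the control comparison at 0.62 to 0.70, and the squares lie on the other side of 0 from the circles for most genes in the comparisons that use that library.

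The call of Psmb8 under αMARCO rested on the fold threshold. After the correction for gene length its log2 fold change was -0.46 (adjusted P = 0.0026 in edgeR), so that 0 of the 10 genes were called, and that of B2m, the shortest, was -0.09 (adjusted P = 0.593). Before the correction, without WT control replicate 1 a total of 4 of the 10 genes were called. The constitutive partners were lower as well, Psmb5 at -0.57 ± 0.08 (adjusted P = 0.000902), Psmb7 at -0.53 ± 0.10 (adjusted P = 0.00464) and Psmb6 at -0.34 ± 0.09 (adjusted P = 0.0139). The log2 ratios of the inducible to the constitutive subunits differed by 0.02 (Psmb8 to Psmb5), -0.12 (Psmb9 to Psmb6) and 0.04 (Psmb10 to Psmb7) between WT αMARCO and WT control, and the groups overlapped for all 3. The ratio of the heavy chains to B2m was -0.48 and -0.57 in WT αMARCO, below both WT control libraries, a difference of -0.14 (exact permutation P = 0.333, the smallest the design allows).

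In the other lists, 8 of 19 constitutive proteasome and activator genes were called as lower under αMARCO in WT TAMs and 0 as higher, with a median of -0.48 beside -0.012 over all genes. The counts called in these lists stand beside 11.8% of all genes tested called as lower and 8.91% called as higher. Psma6 had a log2 fold change of -0.74 ± 0.09 (adjusted P = 0.000341), and Psma2 had -0.56 ± 0.08 (adjusted P = 0.000702). Of 11 genes of loading and trimming in the endoplasmic reticulum, 5 were called as lower and 0 as higher (median -0.41), among them Tapbpl at -0.78 ± 0.09 (adjusted P = 0.000377), the translocon subunit Sec61b at -0.67 ± 0.08 (adjusted P = 0.000494) and Erap1, which trims peptides to fit class I, at -0.62 ± 0.09 (adjusted P = 0.000897). Erap1 had 78.1 and 88.8 CPM in WT control and 54.0 in both WT αMARCO libraries. Before any correction for gene length, genes upstream and downstream of the transporter were thus lower alongside the inducible subunits. Genes with short models as a set were lower in WT αMARCO (-0.25 and -0.178) than in WT control (0.209 and 0.135). The part of gene length in the list values was not tested.

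Of the 16 other class I heavy chains, 3 were called as lower and 0 as higher (median -0.28), namely H2-M2 at -1.77 ± 0.22, Cd1d1 at -1.16 ± 0.21 and Fcgrt, the neonatal Fc receptor, at -0.75 ± 0.13. In the cross-presentation list 3 of 32 were called as lower and 1 as higher (median -0.17), where 11.8% and 8.91% of all genes tested were. Ifi30, the thiol reductase GILT of endosomes, had -1.31 ± 0.25 (adjusted P = 0.00365), Sec61g had -0.85 ± 0.11 (adjusted P = 0.000613), and Hsp90aa1, a cytosolic chaperone, was higher by 0.81 ± 0.17 (adjusted P = 0.0109). Of 6 cytosolic peptidases, Lap3 was called as lower at -0.68 ± 0.08 and Npepps as higher at 0.57 ± 0.08 (median -0.12).

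The regulators were split under αMARCO in WT TAMs, with 2 of 27 called as higher and 2 as lower (median -0.12). Ifng was lower at -3.31 ± 0.59 (adjusted P = 0.00764), whereas Ifnar1, a chain of the type I interferon receptor, was higher by 0.84 ± 0.09 (adjusted P = 0.000186) and Stat2, which relays its signal, by 0.61 ± 0.09 (adjusted P = 0.000976). Irf1 was not among the genes called, with 345 and 327 CPM in WT αMARCO. In the class II list 2 of 10 were called as lower, H2-Oa at -2.33 ± 0.44 and H2-Ob at -0.95 ± 0.19 (median -0.36). All 16 T cell markers, 7 of 9 mature dendritic cell markers, 6 of 10 NK cell markers, 4 of 9 cDC1 markers 1 of 5 B cell markers, 2 of 5 neutrophil markers and 6 of 10 tumor and stromal markers were called as lower beside these genes, together with 4 of 11 TAM markers (C1qa, C1qb, C1qc and Adgre1), and their part in the class I values was not tested.

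Between the genotypes under αMARCO, none of the 10 genes was called, and 0 of 15722 genes were called in all (0%) by edgeR, with 1076 at an unadjusted P under 0.05 and 214 called by DESeq2. The log2 fold changes of WT over 3d/3d ran from -0.49 ± 0.44 for Psmb10 to 0.82 ± 0.41 for Nlrc5, with a median of -0.12 beside -0.0309 over all genes. Both WT libraries were above both 3d/3d libraries for Tap1 and Nlrc5, 2 of 10 genes, where 22.1% of all genes tested showed this. The 3d/3d αMARCO libraries differ from each other by more than the groups do for the other 8 genes.

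Without replicate 2 of 3d/3d αMARCO, which leaves that group with 1 library whose spread is assumed to be that of the other group, all 10 genes had higher values in WT, from 0.11 for B2m to 0.43 for Tap2, with a median of 0.29. None was called, while 7.45% of 16795 genes were. The largest values in that fit were 0.43 ± 0.09 for Tap2, 0.37 ± 0.10 for Tap1, 0.37 ± 0.11 for Nlrc5, 0.32 ± 0.09 for Psmb9 and 0.29 ± 0.09 for Psmb10. In the cross-presentation list of that fit 3 of 32 genes were called as higher in WT (Rac2 0.61, Igtp 0.56 and Rab43 0.51) and 1 as lower (Rab27a -0.52), and of the regulators 3 of 27 were called as higher (Nfya 1.1, Irf1 0.97 and Socs1 0.71) and 1 as lower (Ifnar2 -0.50). In the class II list 4 of 10 genes were called as lower in WT and 0 as higher, among them Cd74 at -0.57 and H2-Ab1 at -0.51. Markers of other cells differed beside these values. In that fit 2 of 15 T cell markers (median 1.61), 2 of 5 B cell markers (median 1.15) and 2 of 9 cDC1 markers (median 0.08) were called as higher in WT and none of them as lower, 2 of 9 mature dendritic cell markers (median 0.04) were called as lower, and of the tumor and stromal markers 5 of 9 were called as lower and 1 as higher (median -0.86). Of 9 NK cell markers 0 were called (median 0.41), of 5 neutrophil markers 1 was higher (median -0.03), and of the TAM markers 1 was higher and 1 lower (median 0.12). Their part in the class I values was not tested. With all 4 libraries and the correction for gene length, the values of the 10 genes ran from -0.23 for Psmb10 to 0.72 for Nlrc5, and none was called.

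Under αMARCO in 3d/3d TAMs, again none of the 10 genes was called, and 0 of 15428 genes were (0%) by edgeR, with 744 at an unadjusted P under 0.05 and 60 called by DESeq2. Fold changes of αMARCO over control ran from -0.57 ± 0.39 for Nlrc5 to 0.72 ± 0.43 for Psmb10, with a median of 0.18 beside 0.0288 over all genes. Only for Nlrc5 did the groups not overlap, with both αMARCO libraries below both controls, as for 19.2% of all genes. Without replicate 2 of 3d/3d αMARCO all 10 values were below 0, from -0.29 for H2-K1 and H2-D1 to -0.04 for B2m (median -0.14), and none was called, against 3.41% of 16754 genes. Beside them in that fit, 2 of 15 T cell markers (median -1.64), 1 of 10 NK cell markers (median -1.19), 2 of 9 mature dendritic cell markers (median -0.18), 1 of 9 cDC1 markers (median 0.10) and 2 of 11 TAM markers (median -0.36) were called as lower under αMARCO and none of them as higher. No B cell marker (median 0.44), neutrophil marker (median -1.38) or tumor and stromal marker (median -0.01) was called. In the class II list 3 of 10 genes were called as higher (H2-Eb1, H2-DMb1 and Ciita, median 0.48). With all 4 libraries and the correction for gene length, the values of the 10 genes ran from -0.47 for Nlrc5 to 0.47 for Psmb10, and none was called.

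Whether the αMARCO effect differs by genotype was tested as an interaction over all 8 libraries, signed as the effect in WT minus that in 3d/3d. None of the 10 genes was called, nor any of 16620 genes (0%) by edgeR, with 2549 at an unadjusted P under 0.05 and 211 called by DESeq2. Psmb10 had -1.21 ± 0.48 and Psmb8 had -0.96 ± 0.38, both with an adjusted P of 0.318, and Psmb9 had -0.83 ± 0.36 (adjusted P = 0.324). Without replicate 2 of 3d/3d αMARCO, these fell in size to -0.43 for Psmb10 (adjusted P = 0.102), -0.43 for Psmb8 (adjusted P = 0.0944) and -0.33 for Psmb9 (adjusted P = 0.215), and none of the 10 was called, against 3.45% of 17724 genes. With all 8 libraries and the correction for gene length, the values were -0.89 for Psmb10, -0.76 for Psmb8 and -0.73 for Psmb9 (adjusted P between 0.302 and 0.319), and none of the 10 was called. A difference in the αMARCO effect on class I genes between the genotypes was therefore not shown, and the estimates depend on 1 library.

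For none of the 3 subunit pairs did the ratio within a library separate αMARCO from control in 3d/3d TAMs (differences of 0.02, 0.14 and 0.29 for Psmb8, Psmb9 and Psmb10 over their partners, or 0.14, 0.21 and 0.03 without replicate 2 of 3d/3d αMARCO). Psmb9 to Psmb6 was -0.78 and -0.90 in 3d/3d αMARCO, below both WT αMARCO libraries at -0.47 and -0.70, a difference of 0.25 for WT over 3d/3d (exact permutation P = 0.333, the smallest the design allows), or 0.19 without replicate 2 of 3d/3d αMARCO. Psmb10 to Psmb7 was 1.84 and 2.36 in 3d/3d αMARCO and 2.36 and 2.08 in WT αMARCO, and Psmb8 to Psmb5 was 0.23 and -0.01 against 0.36 and 0.23, so that these groups overlapped. The differences of WT over 3d/3d were 0.12 and 0.19, or 0.38 and 0.06 without replicate 2 of 3d/3d αMARCO. The heavy chains to B2m were at -0.68 and -0.86 in 3d/3d αMARCO, below both 3d/3d control libraries (a difference of -0.34 for αMARCO over control) and below both WT αMARCO libraries (0.25 for WT over 3d/3d, exact permutation P = 0.333 for each). Without replicate 2 of 3d/3d αMARCO these differences were -0.25 and 0.16.

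Across libraries the 9 genes other than Nlrc5 varied together. Over the 36 pairs among them, Pearson's r of log2 CPM over the 8 libraries ran from 0.47 to 0.99 with a median of 0.89, and from 0.79 to 0.99 with a median of 0.92 over 7 libraries without replicate 2 of 3d/3d αMARCO. Nlrc5 had r between -0.79 and 0.08 with the other 9 over 8 libraries and between -0.23 and 0.21 over 7. These values describe 8 libraries that share groups, scaling and the difference between short and long genes. The mean deviation of the 9 genes was 0.23 and 0.32 in WT control and -0.20 and -0.21 in 3d/3d control. Under αMARCO it was -0.08 and -0.09 in WT and -0.36 and 0.39 in 3d/3d, where that of Nlrc5 was 0.01 and -1.12.

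**Figure D4:**
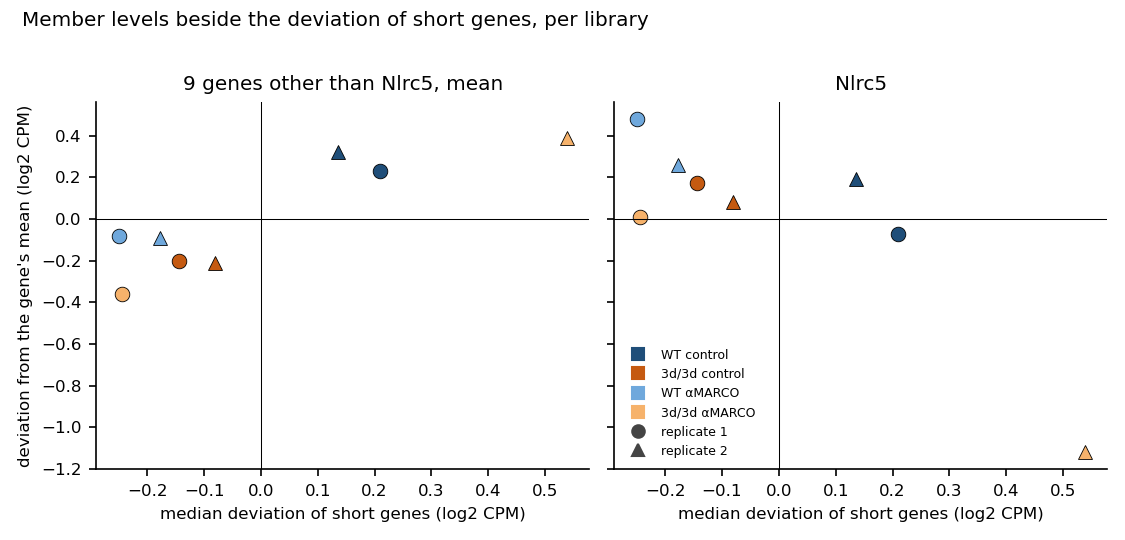
Deviation of the 9 genes other than Nlrc5 (mean, left) and of Nlrc5 (right) from their mean log2 CPM over the 8 libraries, against the median deviation of genes with short models in the same library; colours are groups, circles replicate 1 and triangles replicate 2. Replicate 2 of 3d/3d αMARCO lies apart at 0.538 on the x axis, with the 9 genes at 0.39 and Nlrc5 at -1.12.

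Among 12737 genes outside the lists with at least 10 counts in every library, the 5 whose log2 CPM was most like the mean of the 10 genes over the 8 libraries were Oxa1l (r = 0.994), Kcng2 (r = 0.985), Hpcal1 (r = 0.974), Cycs (r = 0.974) and Alyref (r = 0.973). Oxa1l had 52.7 and 54.7 CPM in WT control and 42.4 and 43.9 in 3d/3d control. Oxa1l had 46.3 and 45.6 in WT and 39.9 and 53.4 in 3d/3d under αMARCO. Over the 7 libraries without replicate 2 of 3d/3d αMARCO the values of r were 0.993, 0.987, 0.969, 0.983 and 0.972 in the same order.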

How the data were processed

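Poly-A RNA of 8 libraries was sequenced on an Illumina NovaSeq instrument. Per the labels and the study's methods, the authors used fastp to clean reads and HISAT2 2.0.5 to align them to GRCm38, and obtained counts of each gene from featureCounts 1.5.0. The authors deposited raw counts, FPKM and DESeq2 results with p-values and fold changes in 3 tables of 2 groups each, and the DESeq2 columns were not used. The deposited FPKM values of the authors served only as an alternative for ratios. Tables were joined by gene identifier, where 0 of 95230 shared counts differed, and genes absent from a table were set to 0 counts (at most 1 count where this could be checked).

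Counts were tested in R 4.3.3 with edgeR 4.0.16 (TMM, filterByExpr, robust quasi-likelihood), with the 4 libraries of each comparison or all 8 for the interaction, and calls needed an adjusted P up to 0.05 and a log2 fold change of 0.5 or more in size. CPM values use TMM over 8 libraries. The alternatives were DESeq2 1.42.0, its size factors, other filters and thresholds, all 8 libraries in 1 model, a replicate block, each library left out, and, chosen after seeing the data, corrections for gene length and GC content (known for 97.9% of genes). Each control sample was a pool of 3 mice by the study's legend. Nothing read here says whether the pools shared animals or what the αMARCO samples were, so P values measure the spread between samples, which may be technical. The detection floor of 3 counts was 0.116 to 0.204 CPM, for counting error only. The members and lists were chosen with earlier results of these data known. Named were the 10 genes, Psmb5, Psmb6, Psmb7, Unc93b1 and at most 3 called genes per list and comparison with the largest fold change whose groups did not overlap; genes named outside this rule (Irf1 under αMARCO, genes in the fits without a library, the called TAM markers, Cd4) were chosen after their values were seen. H2-M10.1 and Nrdc had no match. Procedures were tested on simulated counts with the same spread in every library and no difference between short and long genes. That test therefore does not cover a library that departs from the others.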

Additional observations from a re-analysis of the deposited data

Results flagged for a closer look

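Nlrc5 had values of opposite sign under αMARCO in the 2 genotypes, 0.32 in WT (adjusted P = 0.0524) and -0.57 in 3d/3d (adjusted P = 0.823), and passed the edgeR test in neither. Both WT αMARCO libraries (502 and 433 CPM) were above both WT controls (342 and 411), while both 3d/3d αMARCO libraries (363 and 166) were below both 3d/3d controls (404 and 382). The difference of the effects was 0.88 on the log2 scale, and it did not pass the interaction test in edgeR (adjusted P = 0.355). Without replicate 2 of 3d/3d αMARCO, the library with low counts in long genes, it was 0.41 (adjusted P = 0.204) and the value in 3d/3d was -0.12. With all 8 libraries and the correction for gene length it was 0.67 (adjusted P = 0.325), with 0.20 in WT and -0.47 in 3d/3d. In groups of 2 libraries no single library could be tested as an outlier.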

How the results depend on the processing

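Of 630 member values recomputed under alternatives, 567 kept direction and side of the threshold, 29 became called, 6 lost the call and 28 changed sign, 17 of these 28 and 20 of the 29 when a 3d/3d αMARCO library was left out. The replicate numbers only name samples (correlations between groups of -0.104 to 0.177). With the replicate block all 50 member values kept their call, and the genes called numbered 97 for genotype under αMARCO and 5 for αMARCO in 3d/3d, both against 0. The cause of the changes below was not tested.

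Genes called for genotype in control TAMs were 2025, against 364 with all 8 libraries in one model and 951 at a fold threshold of 1, and 1493 to 2232 with a library left out; member calls were 3, against 0, 0 and 3 to 4, and 6 on adjusted P only. Genes called for αMARCO in WT were 3236, against 164 with all 8 libraries, 5487 on adjusted P only, 1366 at a fold threshold of 1, and 1940 (without WT αMARCO replicate 1) to 3951 with a library left out; member calls were 1, against 2 with no low-count filter, 0 with all 8 libraries, 0 with either correction for gene length, 6 on adjusted P only, 0 at a fold threshold of 1, and 1 to 4 with a library left out (4 without WT control replicate 1, 2 without either WT αMARCO library). Genes called for genotype under αMARCO were 0, against 214 with DESeq2, 107 with no filter, 108 with all 8 libraries, 20 with either correction, and 17 to 6366 with a library left out. Those for αMARCO in 3d/3d were 0, against 60, 174, 1 and 1 in the same order and 1 to 5500 with a library left out. Those for the difference of the effects were 0, against 211 with DESeq2, 152 with no filter, 2 with either correction, and 0 to 6440. The highest of these counts, and member calls of up to 5, 6 and 9 in place of 0 (lowest 0), came without 3d/3d αMARCO replicate 1, where replicate 2 stands alone for its group; without replicate 2, genes called were 1252, 571 and 612 and member calls 0.

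Nlrc5 for genotype in control TAMs (-0.08) was 0.06 after the length correction, 0.03 after length and GC correction, and -0.21 to 0.06 with a library left out. For genotype under αMARCO, H2-K1 (-0.08) was 0.08 and 0.07 after the corrections and -0.36 to 0.28 with a library left out, and H2-D1 (-0.08) was 0.07, 0.05 and -0.35 to 0.25. With a library left out, B2m ran from -0.70 to 0.11, Tap2 from -0.24 to 0.43, Tapbp from -0.42 to 0.16, Psmb8 from -0.67 to 0.26, Psmb9 from -0.56 to 0.32 and Psmb10 from -1.0 to 0.29. For αMARCO in 3d/3d, H2-K1 (0.07) was -0.08 after either correction and -0.29 to 0.37 with a library left out, and H2-D1 (0.05) was -0.10, -0.09 and -0.29 to 0.33. With a library left out, B2m ran from -0.04 to 0.78, Tap1 from -0.08 to 0.22, Tap2 from -0.17 to 0.52, Tapbp from -0.20 to 0.40, Psmb8 from -0.14 to 0.82, Psmb9 from -0.14 to 0.75 and Psmb10 from -0.08 to 1.23. With the authors' FPKM, or with 1 count added, the ratios moved by less than their spread. In groups of 2 libraries, leaving 1 out cannot move a ratio by more than this spread, so that alternative does not test the ratios.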
